A study of Homo sapiens with 36 samples.

Results

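The libraries described here show how IRG1 knockout (KO) macrophages answered bacterial lipopolysaccharide (LPS) with interferon-gamma (IFN-gamma) after 6 h. They were chosen by the genotype, treatment and time in their labels and comprise 3 stimulated and 3 vehicle libraries, 6 of 36 RNA-seq libraries in all. IRG1 is an older symbol of ACOD1, which encodes the mitochondrial enzyme that turns cis-aconitate, an intermediate of the TCA cycle, into itaconate. The study used THP-1, an established human line from a monocytic leukaemia, as wild type (WT) and as IRG1 KO cells. Every group, vehicle controls included, first received 100 nM PMA for 72 h, which makes THP-1 cells adherent and macrophage-like. Stimulated groups then received LPS at 200 ng/mL together with IFN-gamma at 200 ng/mL, and control groups received the vehicle, for 6, 12 or 24 h, with 3 libraries in each of 12 groups. Besides the KO groups at 6 h, the WT groups at 6 h and the KO groups at 12 h and 24 h are used for comparison. How the knockout was made, which part of the gene it removes and whether the cells are 1 clone are not given in the sources used here. LPS and IFN-gamma were always given together, so the contributions of the 2 agents cannot be told apart.

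LPS is sensed by TLR4 together with its partner LY96 and the coreceptor CD14, and the adaptors MYD88 and TICAM1 lead from there to NF-kB and to the interferon regulatory factors. IFN-gamma binds the receptor chains IFNGR1 and IFNGR2, whose kinases JAK1 and JAK2 start the signalling that induces IRF1, the guanylate-binding proteins and the antigen presentation machinery. In macrophages the pair of signals is the classical recipe for the inflammatory state, and ACOD1 is itself among the genes it induces.

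All values are log2 expression values per gene as deposited by the authors. Sets of 3 values run from replicate 1 to replicate 3, vehicle libraries first. A change is the difference of the group means on the log2 scale, and n is 3 in every group. The value after ± is limma's standard error, which rests on 1 spread per gene pooled over all 12 groups of 36 libraries. It is not the spread of the 6 libraries compared. A gene is called, and written as having risen or fallen, where limma's moderated test gives a Benjamini-Hochberg adjusted p below 0.05 over the 21232 genes tested. Nothing in the labels ties the 3 libraries of a group to separate cultures. The p-values therefore reflect the spread between libraries within all 12 groups, which may be technical. The deposited table holds no read counts, so the depth behind each value is unknown, and fewer cells of a kind cannot be told apart from less RNA per cell. Of 12 macrophage markers, 11 had a mean of at least 6 over the 6 libraries, among them CD68, CSF1R and LYZ, and MRC1 did not. Their summed linear level ran from 15771 to 21736 in vehicle libraries and from 10427 to 16429 in stimulated libraries. Of 31 markers of other cell types 21 were tested, with a median level of 2.16 in vehicle and 2.32 in stimulated libraries and a summed linear level of 876 to 1324 and 1165 to 2263. NCR1 of natural killer cells stayed at or below 1 in all 6 libraries, and the markers with a mean of 6 or more were ELANE and PECAM1. Of these 21 markers 4 rose and 3 fell, beside 16.2% and 22.5% of all genes tested, or 2 and 4 without vehicle replicate 2 and 2 and 3 without vehicle replicate 3. The part of such markers in the results was not tested. The B-cell factor PAX5 moved from 3.37, 3.03 and 2.77 to 8.44, 7.08 and 7.81, with every stimulated value above every vehicle value.

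Stimulated replicate 2 stood apart from the other stimulated libraries. Across genes its correlation with replicates 1 and 3 was 0.827 and 0.851, whereas replicates 1 and 3 correlated at 0.954 and the vehicle libraries with each other at 0.922 to 0.961. The correlation of stimulated replicate 2 with vehicle replicate 2 was 0.772, above its 0.668 and 0.712 with vehicle replicates 1 and 3. It lay more than 1 log2 unit from the mean of replicates 1 and 3 in 46.1% of genes and more than 2 units away in 15.3%. Its deviation followed gene composition and length, in the 17660 genes (83.2%) with both values. Both were taken from the longest annotated transcript (GENCODE) of each gene. Over 4 equal bins of genes from the lowest to the highest GC content, its median deviation was -0.81, -0.33, 0.25 and 0.69. Over 4 bins from the shortest to the longest genes it was 0.78, 0.28, -0.29 and -0.85. Vehicle replicate 2 leaned the same way with smaller values, from -0.39 to 0.35 over GC content and from 0.40 to -0.49 over length. Pseudogenes (median deviation 0.82) and long noncoding RNAs (0.51) read higher in stimulated replicate 2 and protein-coding genes were near the others (-0.06). The change from vehicle to stimulated cells itself had a correlation of -0.03 with GC content and -0.05 with log2 length over all genes, given as a description. Whether RNA quality or library preparation set replicate 2 apart was not tested.

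**Figure D1:**
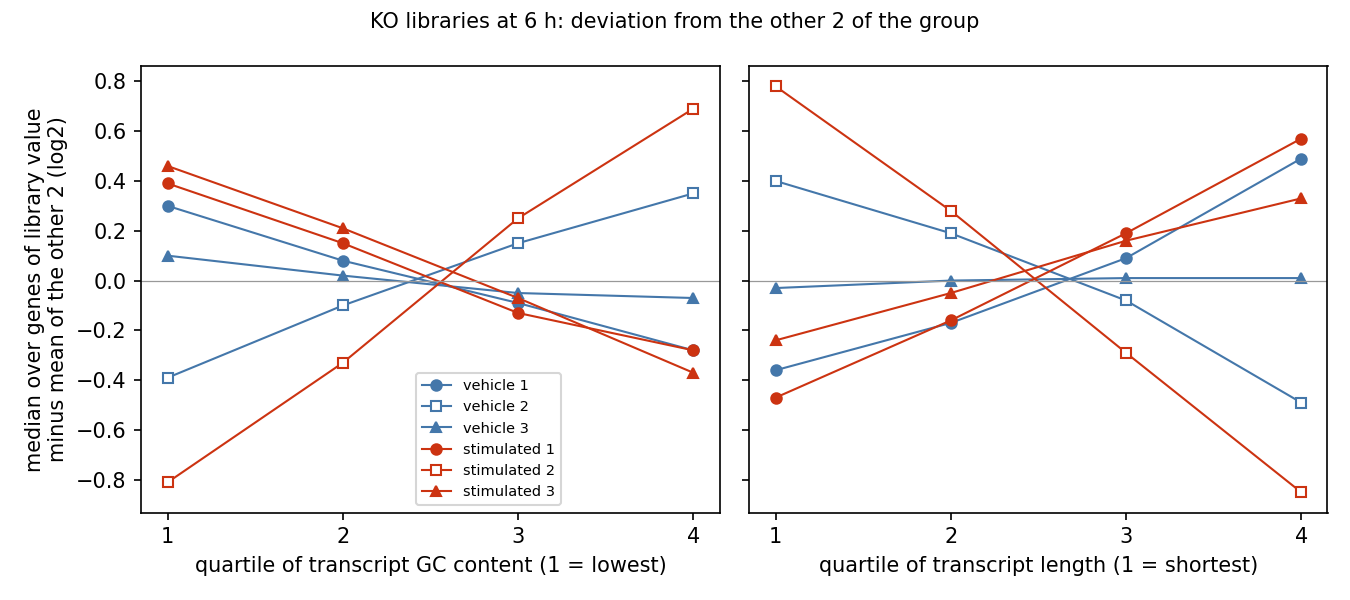
Median deviation (log2) of each of the 6 KO libraries at 6 h from the mean of the other 2 libraries of its group. Genes are in 4 bins of GC content and 4 bins of length of their longest transcript. Stimulated replicate 2 runs from -0.81 to 0.69 over GC content and from 0.78 to -0.85 over length, and vehicle replicate 2 leans the same way with smaller values.

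Leaving out stimulated replicate 2 changed many single calls. With all 6 libraries 8219 genes were called, and 8260 (38.9% of genes tested) were called without stimulated replicate 2. Both sets shared 6709 genes, every one with the same direction, 1510 genes lost their call without the library and 1551 gained one. Both fits use all the other libraries, so a reversed direction among genes called in both was unlikely from the start. Of the genes called without it, 6945 (84.1%) had the same sign in replicate 2 measured against the vehicle mean. The 3583 genes called higher without it had a median rise of 2.19, 1.70 and 2.21 in stimulated replicates 1, 2 and 3, and the 4677 genes called lower had -1.43, -1.05 and -1.47. These genes were chosen from replicates 1 and 3, which by itself raises their sizes in those libraries over replicate 2. TMEM47, a membrane protein of cell junctions, read 1.52, 1.95 and 3.22 in vehicle cells and 6.57, 1.89 and 7.04 after stimulation, and its change was 2.94 with and 4.58 without replicate 2. That gene also lost its call without stimulated replicate 1 (2.24) or 3 (2.00). SEMA3C, a secreted semaphorin, read 2.48, 1.59 and 1.93 and then 6.72, 2.55 and 7.05, with changes of 3.44 and 4.89. The opposite lean was seen in the T-cell checkpoint gene LAG3, which read 0.01, 0.76 and 0.10 in vehicle cells and 3.84, 6.85 and 2.97 after stimulation. The acute phase gene SAA4 read 0.00 in all 3 vehicle libraries and 2.56, 7.06 and 3.34 in the stimulated ones, where reads of a readthrough transcript with SAA2 may be included. These 4 genes were chosen because stimulated replicate 2 lay far from the other stimulated libraries, so its departure in them follows from the choice.

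The first question was which genes the stimulus moved in IRG1 KO cells. In all, 3434 genes rose (16.2% of those tested) and 4785 fell (22.5%), together 38.7% of the genes tested, against a median change of -0.20 over all genes. Rises were larger than falls: the median was 2.22 among the genes that rose and -1.45 among those that fell. By at least 5 log2 units 285 genes rose and 12 fell, and by at least 2 units 1943 rose and 1273 fell. The 3 stimulated and 3 vehicle values did not overlap in 8616 genes (40.6%). Protein-coding genes made up most calls, with 2605 higher and 3863 lower of 15289. Of 286 microRNA loci 74 rose and 18 fell, and of 1870 long noncoding RNAs 303 rose and 412 fell. With only these 6 libraries in the model 2311 genes were called higher and 2313 lower, and with medians equalised within bins of GC content and length 4181 and 4201. Rises made up 41.8% of the calls with all libraries and 50.0% and 49.9% under these settings, where the excess of falls over rises was absent. Equalising medians largely takes out the median change of -0.20 by construction. That setting therefore does not test the excess of falls.

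ACOD1 itself rose in the KO cells. It read 0.04, 0.12 and 0.00 in vehicle libraries and 8.35, 8.31 and 8.80 in stimulated libraries, a rise of 8.43 ± 0.47 (adjusted p = 2.32e-14). All 3 stimulated values lay far above all vehicle values, and replicate 2 matched the others. In WT cells the stimulated libraries read 12.76, 11.49 and 11.11, all above the KO libraries. The transcript of the targeted gene was therefore present in stimulated KO cells at a lower level. Because the values cover the gene as a whole and the removed part is not given, they do not show whether an intact message or enzyme was made. Of 23 genes of itaconate, arginine and tryptophan metabolism 10 rose and 6 fell (median change 0.44), beside 16.2% and 22.5% of all genes. Only 3 fell without stimulated replicate 1 or vehicle replicate 2. The tryptophan-degrading enzyme IDO1 moved from 0.05, 0.22 and 0.03 to 10.18, 9.97 and 10.72, a rise of 10.19 ± 0.26. KYNU, which acts further down the same kynurenine route, rose by 3.50 ± 0.39 from 5.45, 6.77 and 7.06 to 9.91, 9.71 and 10.16. IDO1 and KYNU had no overlap between groups. SLC25A10, the mitochondrial dicarboxylate carrier, fell by 2.27 on the log2 scale from 5.60, 5.84 and 5.68 to 3.37, 3.60 and 3.34. The inducible nitric oxide synthase NOS2, a hallmark of activated mouse macrophages, read 2.13, 1.27 and 0.87 and then 3.78, 2.18 and 4.48. Its change of 2.06 ± 0.67 was called, and the call was lost without stimulated replicate 1 (1.91) or 3 (1.56) or vehicle replicate 3 (1.78).

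Among the receptors and first signalling steps, the adaptors MYD88 and TICAM1 rose, while TLR4 was not called and CD14 was called lower. Of 29 genes of the LPS receptor complex and its adaptors 8 rose and 3 fell, beside 16.2% and 22.5% of all genes. Without stimulated replicate 2 the count was 15 and 3 (16.9% and 22.0% of all genes), and without replicate 1 it was 5 and 1. TLR4 read 6.34, 4.88 and 5.25 in vehicle and 7.22, 5.24 and 7.51 in stimulated libraries, and its change of 1.17 ± 0.69 was not called with all libraries but was without replicate 2 (1.88). TLR2, the receptor of bacterial lipopeptides, behaved likewise with 1.29 and 2.25, its replicate 2 value of 2.97 lying below all 3 vehicle values. CD14 read 6.24, 7.04 and 6.45 and then 4.77, 5.80 and 4.67, and its call (-1.50 ± 0.57) was lost without stimulated replicate 1 (-1.34) or 3 (-1.29) or vehicle replicate 2 (-1.26) or 3 (-1.56). CD180, a TLR4-like receptor that restrains LPS sensing, fell by 4.25 on the log2 scale from 8.15, 8.78 and 7.85 to 4.69, 3.92 and 3.42. MYD88 moved from 5.13, 5.50 and 5.13 to 8.53, 7.56 and 8.12 (2.82 ± 0.23) and the kinase IRAK2 from 4.43, 3.44 and 3.60 to 9.07, 7.49 and 8.92 (4.67 ± 0.53). TICAM1 rose by 2.83 ± 0.40. The groups did not overlap for CD180, MYD88 or IRAK2.

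Most genes of the IFN-gamma arm rose, with 21 of 28 genes higher and 1 lower (median 2.53), beside 16.2% and 22.5% of all genes. The gene that fell was IFNGR1, the ligand-binding chain, which went from 9.45, 8.51 and 7.91 to 6.68, 6.12 and 6.85 (-2.07 ± 0.33). Its partner chain IFNGR2 rose by 1.06 ± 0.25 from 6.11, 7.13 and 6.45 to 7.23, 7.84 and 7.80. All 3 stimulated values lay outside the vehicle values for both chains, in opposite directions. IRF1, an early transcription factor of the IFN-gamma response, moved from 6.07, 6.11 and 5.78 to 9.84, 9.77 and 9.95 (3.87 ± 0.24, adjusted p = 1.86e-13). The feedback inhibitor SOCS1, which blocks JAK kinases, rose by 6.61 ± 0.55 from 3.01, 4.60 and 4.14 to 10.23, 11.07 and 10.27. JAK1 was not called (0.42 ± 0.45). Its stimulated values of 9.32, 6.46 and 9.03 lay on both sides of the vehicle values of 8.40, 7.06 and 8.07, and the change without replicate 2 was 1.33 and called.

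The largest rises among the named genes were in chemokines. Of 15 CXC chemokines 11 rose and none fell (median 7.39), and of 16 CC chemokines 14 rose and none fell (median 6.14). Among all genes tested 16.2% rose and 22.5% fell. CXCL9, CXCL10 and CXCL11, the ligands of CXCR3 that draw activated T cells and natural killer cells, were at or near the bottom of the scale in vehicle cells. CXCL9 read 0.14, -0.24 and 0.01 and then 16.75, 15.41 and 16.47, a rise of 16.24 ± 0.40. CXCL10 read -0.24, 1.83 and 0.93 and then 16.12, 14.89 and 16.20 (14.90 ± 0.73). CXCL11 read 0.07, 1.06 and 0.04 and then 14.62, 12.76 and 14.85 (13.69 ± 0.72). For these 3 genes no stimulated value came near a vehicle value, and replicate 2 was the lowest stimulated library each time. Near 0 a log2 change depends on the offset added before the logarithm, which is not given, so these sizes are not folds. CXCL8, the main attractant of neutrophils, rose by 8.70 ± 0.68 from 2.29, 2.85 and 3.60 to 11.79, 10.37 and 12.66. CCL8, a monocyte attractant, read -0.12, 1.03 and 0.27 and then 13.26, 13.39 and 14.96 (13.48 ± 0.76). CCL2, which recruits monocytes through CCR2, moved from 2.89, 4.14 and 4.20 to 12.90, 13.00 and 14.33 (9.67 ± 0.65). CCL19 reached 9.47, 12.72 and 10.19 and its receptor CCR7, which guides cells to lymph nodes, 10.84, 11.53 and 11.24, from vehicle values of at most 0.24 and 1.25. CCL4 (10.87) and its copy CCL4L1 (12.01), and CCL3L1 (10.23) as a copy of CCL3, share near-identical sequence, so how the counting split their reads is uncertain. The homeostatic chemokine CCL17 read 0.21, 1.66 and 0.00 and then 3.52, 6.52 and 2.04, with a change of 3.40 that was 2.16 without replicate 2.

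The promoters of these genes carry letters that match the binding motifs of the factors named above. The stretches below are shown because each holds a match in a gene with a large rise. They come from the RefSeq promoter windows of GRCh38.p14 (250 bases before to 50 after each start), not from the build used for the expression values. Capitals mark the match. CXCL9 (chr4:76007663-76007688, minus strand) and GBP1 (chr1:89065318-89065343, minus strand), a guanylate-binding protein, hold the interferon-stimulated response element, as does ISG15 (chr1:1013376-1013407, plus strand), a ubiquitin-like antiviral protein, with overlapping matches. NFKBIA (chr14:35404813-35404838, minus strand), TNFAIP3 (chr6:137867184-137867221, plus strand) and IL6 (chr7:22727119-22727144, plus strand) hold kappa B motifs. CXCL10 (chr4:76023602-76023726, minus strand) holds both kinds and IRF1 (chr5:132490806-132490905, minus strand) a gamma-activated site and a kappa B motif.
CXCL9: atttatgtGAAATGGAAAtaaaaaca
GBP1: cgaagtacTTTCAGTTTCatattact
ISG15: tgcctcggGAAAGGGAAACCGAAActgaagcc
NFKBIA: actggcttGGAAATTCCCcgagcctg
TNFAIP3: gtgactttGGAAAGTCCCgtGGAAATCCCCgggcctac
IL6: tcaaatgtGGGATTTTCCcatgagtc
CXCL10: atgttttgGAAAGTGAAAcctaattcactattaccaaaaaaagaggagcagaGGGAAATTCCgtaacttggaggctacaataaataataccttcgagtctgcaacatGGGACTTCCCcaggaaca
IRF1: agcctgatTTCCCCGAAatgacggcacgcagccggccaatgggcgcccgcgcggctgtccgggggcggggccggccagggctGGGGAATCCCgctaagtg

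The response element and the kappa B motif were found more often in genes with larger rises. Promoter windows were matched for 13736 tested genes (64.7%) and searched on both strands for the response element (GAAA, any 2 bases, GAAA), the gamma-activated site TTCNNNGAA, the AP-1 site TGANTCA and the kappa B motif, each counted even where it overlapped another. The response element was found in 16.2% of the 191 genes that rose by 5 or more, in 6.85% of the 1022 that rose by 2 to 5, in 4.21% of the 1068 with a smaller rise, in 2.73% of the 7990 genes not called and in 1.61% of the 870 that fell by 2 or more. For the kappa B motif the shares in the same order were 23%, 10.6%, 8.43%, 5.92% and 5.52%. The gamma-activated site was in 16.2% of the genes with the largest rises and 4.71% of those with the largest falls, and the AP-1 site in 13.1% and 5.06%. Among all 13736 windows the shares were 3.11% for the response element, 6.65% for the gamma-activated site, 6.52% for kappa B and 5.26% for AP-1. Over all 27305 windows of the table they were 3.65%, 7.88%, 5.72% and 7.76%. A match is a run of letters and not a bound site, and the shares are given as a description.

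Cytokine genes rose in 25 of 29 cases and fell in 2 (median 5.06), beside 16.2% and 22.5% of all genes. The number lower was 1 without stimulated replicate 1 or vehicle replicate 2. IL6, which drives the acute phase response, read -0.01, 0.43 and 0.01 and then 9.94, 9.88 and 10.54 (9.97 ± 0.63). TNF read 0.24, 0.58 and 0.10 and then 5.86, 6.47 and 5.91 (5.77 ± 0.44). IL1B, whose product needs caspase-1 to mature, moved from 4.89, 6.10 and 5.86 to 11.34, 11.28 and 12.06 (5.94 ± 1.24). In these 3 genes stimulated replicate 2 read like the other libraries, and the groups were wide apart. The IL-12 family subunits rose together: IL12B from 0.16, 0.21 and 0.05 to 4.82, 6.66 and 5.73 (5.60 ± 1.15), IL27 from 0.06, 1.05 and 0.05 to 8.23, 9.97 and 8.31 (8.45 ± 0.47), and EBI3, the partner subunit of IL27, from 2.11, 6.05 and 2.48 to 11.63, 13.02 and 12.18 (8.73 ± 0.62). Replicate 2 was the highest library of its group for all 3, before as well as after stimulation. The growth factor CSF2 rose by 6.29 ± 0.65 from 0.16, 0.16 and 0.00 to 5.50, 7.29 and 6.41, and IL1A by 6.47 ± 0.88 from 0.76, 0.18 and 0.96 to 7.28, 5.79 and 8.22. IFNB1, the type I interferon made after TICAM1 signalling, read 0.00, 3.28 and 0.00 and then 5.14, 8.07 and 6.50 (5.48 ± 1.04). IL18, which macrophages keep ready as a precursor, was not called (-0.98 ± 0.40, adjusted p = 0.05 as rounded), with 7.01, 7.67 and 6.77 against 5.78, 6.85 and 5.89. It passed the test without stimulated replicate 2 (-1.32) or vehicle replicate 3 (-1.17) and with replicate numbers as a block (adjusted p = 0.0227).

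Brakes on inflammation rose beside the cytokines, with 14 of 19 genes higher and 2 lower (median 3.15), against 16.2% and 22.5% of all genes. The number lower was 1 without stimulated replicate 1, 2 or 3 or vehicle replicate 1 or 3. IL10 read 1.70, 0.29 and 1.23 and then 2.62, 5.10 and 3.15, a rise of 2.55 ± 0.69 (adjusted p = 0.00435) that was 1.81 without replicate 2. The lowest stimulated value of IL10 lay less than 1 unit above the highest vehicle value. TNFAIP6, a hyaluronan-binding protein that dampens neutrophil entry, rose by 11.57 ± 0.45 from 0.48, -0.17 and 0.05 to 11.66, 11.08 and 12.32. CD274, the checkpoint ligand PD-L1, rose by 8.39 ± 0.43 from 0.28, 0.34 and 0.06 to 9.20, 7.58 and 9.06. TNFAIP6 and CD274 were near 0 in every vehicle library and high in every stimulated one.

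NF-kB genes rose in 23 of 25 cases with none lower (median 2.31). NFKBIA, the inhibitor that NF-kB itself induces and whose promoter is shown above, moved from 8.10, 8.88 and 9.08 to 12.80, 12.53 and 13.26 (4.17 ± 0.30). The ubiquitin-editing enzyme TNFAIP3 (A20) read 5.64, 4.94 and 5.22 and then 11.95, 8.41 and 11.76. Its rise was 5.44 with and 6.59 without replicate 2, the lowest stimulated library. NFKB2, the precursor of p52, rose by 5.28 ± 0.25 from 3.73, 4.98 and 4.02 to 9.59, 9.37 and 9.60, and RELA, the classical transactivating subunit, by 2.26 ± 0.29 from 7.42, 7.46 and 7.16 to 9.83, 9.23 and 9.76. BIRC3, a ubiquitin ligase of the TNF receptor complex, went from 0.64, 1.00 and 0.90 to 9.21, 8.46 and 9.59 (8.24 ± 0.35). No group overlapped for these 5 genes. The wider ubiquitin system was mixed, to be read beside 16.2% higher and 22.5% lower of all genes. Of 56 ubiquitin ligases 27 rose and 9 fell (median 0.84), of 34 ubiquitin, E1 and E2 genes 12 rose and 6 fell (0.13), and of 46 deubiquitinases 12 rose and 12 fell (-0.07), or 17 and 10 without replicate 2. The ligase NEURL3 moved from 0.06, 0.99 and 0.01 to 7.35, 8.62 and 8.03. UBE2L6, the conjugating enzyme of ISG15, moved from 7.84, 8.43 and 7.57 to 11.27, 11.26 and 11.50 (3.40 ± 0.27). The deubiquitinase USP2 fell by 3.97 on the log2 scale from 7.11, 7.03 and 5.79 to 3.03, 2.12 and 2.86. Each of these 3 was separated between the groups.

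**Figure D2:**
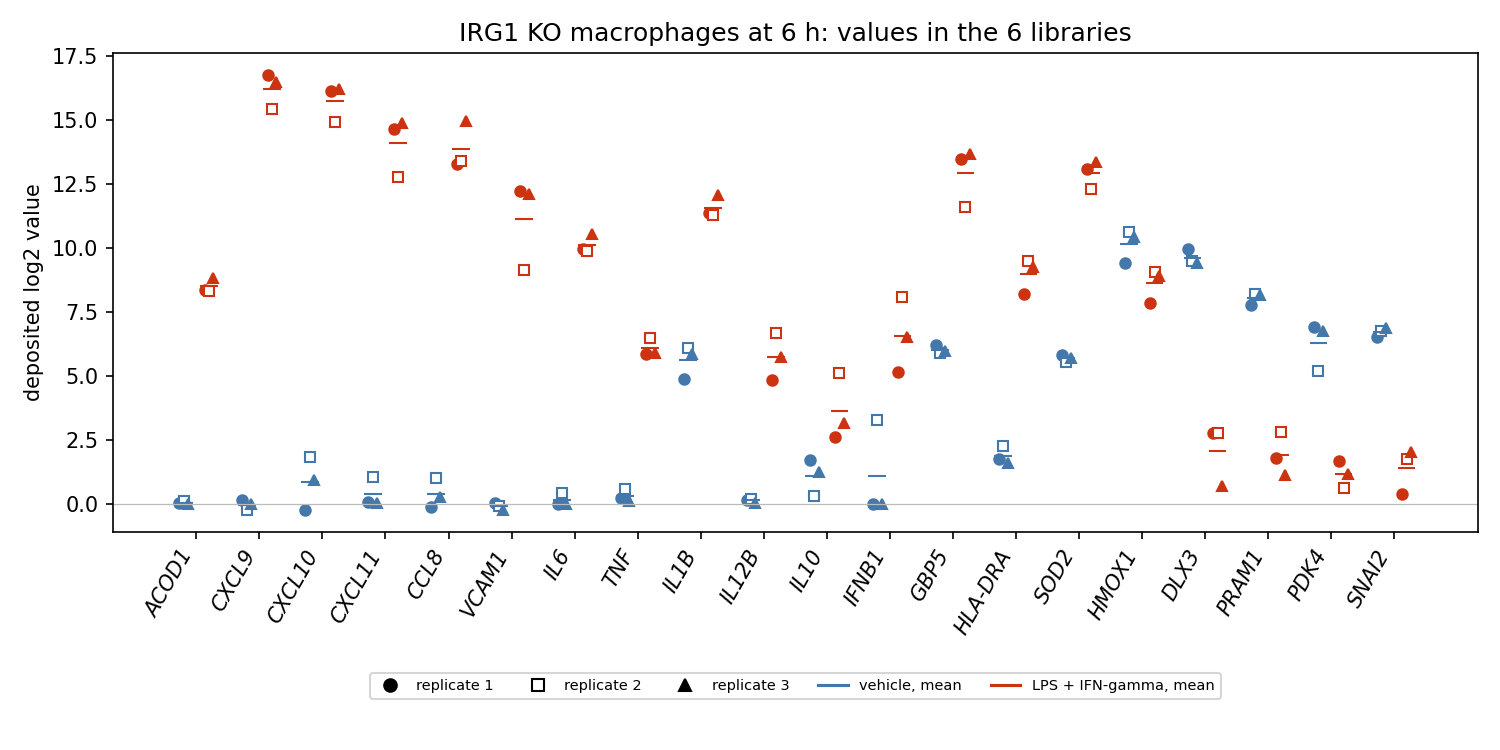
Deposited log2 values of 20 genes in the 3 vehicle and 3 stimulated KO libraries at 6 h, with open squares for replicate 2 and lines at the group means. CXCL9 rises from values near 0 to 15.41 or more, ACOD1 reaches 8.31 to 8.80, and DLX3 and PRAM1 fall to 2.81 or less in every stimulated library.

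Nearly all interferon-stimulated genes rose. Of 43 antiviral genes 42 rose and none fell (median 4.32), and of 12 guanylate-binding proteins and related GTPases 11 rose and 1 fell (5.35). The same counts were found without replicate 2. Among all genes tested 16.2% rose and 22.5% fell. ISG15, whose response elements are printed above, moved from 8.23, 10.05 and 8.62 to 15.04, 16.47 and 15.08 (6.56 ± 0.67). MX1, a GTPase that blocks viral replication, rose by 6.11 ± 0.74 from 3.47, 5.24 and 3.34 to 10.55, 9.16 and 10.67. OASL, a sensor-like protein of the OAS family, rose by 7.99 ± 0.68 from 1.88, 4.02 and 2.10 to 10.46, 10.91 and 10.61. Vehicle replicate 2 was the highest vehicle library for ISG15, MX1 and OASL, and no stimulated value reached down to it. GBP1 read 6.70, 6.90 and 6.01 and then 15.19, 11.78 and 15.30, and its rise of 7.55 was 8.70 without replicate 2. GBP5, which helps assemble the inflammasome, went from 6.21, 5.88 and 5.98 to 13.48, 11.60 and 13.66 (6.89 ± 0.46). The exception was IRGM, an autophagy-linked GTPase, which read 3.52, 2.55 and 2.17 and then 1.18, 1.42 and 1.30. Its call (-1.45 ± 0.50) was lost without stimulated replicate 1 (-1.39) or vehicle replicate 1 (-1.06). Members of the guanylate-binding family are alike in sequence, so reads may have been shared among them.

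Antigen presentation rose on both routes. For class II 14 of 17 genes rose and 2 fell (median 2.52), or 1 fell without stimulated replicate 1, 2 or 3 or vehicle replicate 2 or 3, and for class I 11 of 16 rose and none fell (1.34). CIITA, the master regulator of class II genes, went from 1.49, 2.41 and 1.59 to 8.36, 7.57 and 8.08 (6.17 ± 0.53). HLA-DRA read 1.74, 2.28 and 1.59 and then 8.19, 9.50 and 9.25 (7.11 ± 0.60), and the invariant chain CD74 7.26, 7.89 and 7.54 and then 9.70, 10.73 and 10.03 (2.59 ± 0.36). All stimulated values of CIITA, HLA-DRA and CD74 exceeded all vehicle values. The peptide transporter TAP1 moved from 3.66, 4.26 and 3.24 to 9.38, 9.05 and 9.65 (5.63 ± 0.24), and B2M, the light chain of class I, from 14.56, 13.90 and 14.33 to 15.90, 15.08 and 15.98 (1.39 ± 0.24). The immunoproteasome, which cuts peptides for class I, rose in 6 of 8 genes (median 1.43), whereas the constitutive proteasome had 6 of 31 genes higher (0.04), beside 16.2% of all genes, and 2 lower without stimulated replicate 2. PSMB9 of the immunoproteasome went from 4.82, 5.73 and 4.89 to 8.16, 9.36 and 8.48 (3.52 ± 0.31). PSMB5 of the constitutive proteasome was not called, with 5.96, 7.03 and 6.54 against 6.19, 7.49 and 5.94.

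Costimulatory ligands rose in 15 of 18 cases and fell in 2 (median 3.19). CD80 read 1.43, 0.77 and 1.28 and then 10.63, 9.24 and 10.03 (8.81 ± 0.40), CD40 rose by 5.91 ± 0.29 and CD86 by 3.13 ± 0.59. HAVCR2 (TIM-3), a checkpoint receptor, fell by 2.30 on the log2 scale from 7.96, 8.76 and 7.87 to 5.50, 6.48 and 5.73. Both CD80 and HAVCR2 were separated between the groups. Of 21 adhesion genes 7 rose and 4 fell (-0.22), beside 16.2% and 22.5% of all genes. Without vehicle replicate 1 the number lower was 2. VCAM1, which binds the integrin VLA-4, read 0.03, -0.07 and -0.24 and then 12.20, 9.12 and 12.08 (11.23 ± 0.60), while the complement receptor chain ITGAM fell by 1.05 on the log2 scale and lost its call with GC and length bins equalised (-0.50).

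Among immediate early genes 17 of 25 rose and 1 fell (median 2.17). The gene that fell was FOS, from 8.70, 9.03 and 7.83 to 6.62, 5.37 and 5.75 (-2.61 ± 0.48), while its partner JUN rose by 1.76 ± 0.35 from 12.76, 13.64 and 14.06 to 15.50, 14.33 and 15.90. EGR1 was not called (-0.47 ± 0.98), with stimulated values of 5.54, 3.28 and 2.61 on both sides of vehicle values of 4.15, 4.70 and 4.01. Among myeloid transcription factors 12 of 25 rose and 6 fell (0.81), beside 16.2% and 22.5% of all genes. IRF8 rose from 8.34, 8.22 and 8.17 to 11.51, 9.56 and 11.52 (2.61 ± 0.36) and IRF4 from 0.04, 0.15 and 0.01 to 7.61, 3.83 and 7.88 (6.37 ± 0.65). CEBPA, a factor of myeloid differentiation, fell by 2.29 on the log2 scale from 14.42, 15.12 and 14.64 to 12.44, 12.82 and 12.05. Replicate 2 was the lowest stimulated library for IRF8 and IRF4, and the groups stayed apart for all 3 genes.

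Of the 286 microRNA loci tested 74 rose, beside 16.2% of all genes. Libraries were made from total RNA depleted of ribosomal RNA, so reads at these loci may come from host transcripts and cannot be told from the hairpin. The locus of MIR155, a classical inflammatory microRNA, read 1.90, 2.77 and 1.98 and then 9.00, 8.81 and 9.05 (6.74 ± 0.58, adjusted p = 2.31e-10), and its host gene MIR155HG rose by 5.82 ± 0.51. MIR146A, which targets the adaptors of TLR signalling, went from 0.29, 0.41 and 0.11 to 5.86, 3.66 and 5.36 (4.69 ± 0.55). MIR147B and MIR21 rose by 4.09 ± 0.59 and 3.88 ± 0.59. No vehicle library overlapped a stimulated one for MIR155 or MIR146A. The mature sequences of these 4 loci, from RefSeq with GRCh38.p14, are printed to show that their seeds (bases 2 to 8, in capitals) differ from each other. All lie on plus strands, in the order printed at chr21:25573983-25574006, chr5:160485372-160485393, chr15:45433098-45433118 and chr17:59841273-59841294.
hsa-miR-155-5p: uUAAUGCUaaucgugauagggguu
hsa-miR-146a-5p: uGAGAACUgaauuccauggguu
hsa-miR-147b-3p: gUGUGCGGaaaugcuucugcu
hsa-miR-21-5p: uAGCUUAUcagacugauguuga

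The largest falls were in genes of mixed roles. DLX3, a homeobox factor, read 9.96, 9.48 and 9.40 and then 2.75, 2.77 and 0.69 (-7.55 ± 0.84, adjusted p = 2.81e-08). PRAM1, an adaptor of myeloid cells, went from 7.77, 8.21 and 8.16 to 1.81, 2.81 and 1.12 (-6.13 ± 0.55). The epithelial-mesenchymal factor SNAI2 went from 6.50, 6.73 and 6.88 to 0.40, 1.76 and 2.04 (-5.30 ± 0.48). The falls named here were chosen among called genes whose groups do not overlap, so their separation follows from the choice. In DLX3, PRAM1 and SNAI2 every stimulated library was several units below every vehicle library. RGS4, a brake on G protein signalling, fell by 5.21 on the log2 scale from 9.01, 8.52 and 8.19 to 3.20, 2.61 and 4.27, and DEPTOR, an inhibitor of the kinase mTOR, by 4.90 from 6.56, 6.69 and 7.30 to 2.11, 1.53 and 2.19. Further large falls were those of KCNF1 (-6.17), PCARE (-5.88), RTN4RL1 (-5.44), PDK4 (-5.12), FOXO6 (-5.10), LONRF2 (-5.00) and LRRC25 (-4.95). LONRF2 stood apart in stimulated replicate 2, where it read 0.02 against 4.04 and 3.80, and its change without that library was -3.70.

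Chemokine receptors and related receptors were divided, with 12 of 34 higher and 10 lower (median 0.56), beside 16.2% and 22.5% of all genes. CX3CR1, the fractalkine receptor, fell by 3.20 on the log2 scale from 8.86, 8.10 and 8.11 to 5.21, 5.25 and 5.01. CCR2, the receptor of CCL2, fell by 3.24 from 7.29, 5.99 and 7.82 to 4.42, 2.22 and 4.74. CXCR2, a receptor of CXCL8, fell by 3.21 from 4.92, 3.72 and 4.14 to 0.92, 1.64 and 0.61. For these 3 receptors every stimulated value lay below every vehicle value. HCAR3, a receptor of hydroxylated fatty acids, was among those that rose, from 2.04, 0.00 and 0.72 to 10.32, 9.34 and 9.08. Scavenger, lectin and Fc receptors had 8 of 31 higher and 4 lower (0.14), beside the same shares of all genes. MERTK, which takes up dying cells, fell by 4.50 on the log2 scale from 7.38, 8.16 and 8.08 to 3.19, 3.39 and 3.53, and FCGR1A, the high-affinity IgG receptor, rose by 2.31 ± 0.41 and shares near-identical sequence with related loci. Of the 12 macrophage markers 1 rose and 5 fell (-0.49), or 1 and 2 with GC and length bins equalised. CSF1R, the receptor of the macrophage growth factor, fell by 1.96 on the log2 scale from 9.41, 10.10 and 9.39 to 7.58, 8.18 and 7.26, and CD68 was not called with a difference of -0.01.

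**Figure D3:**
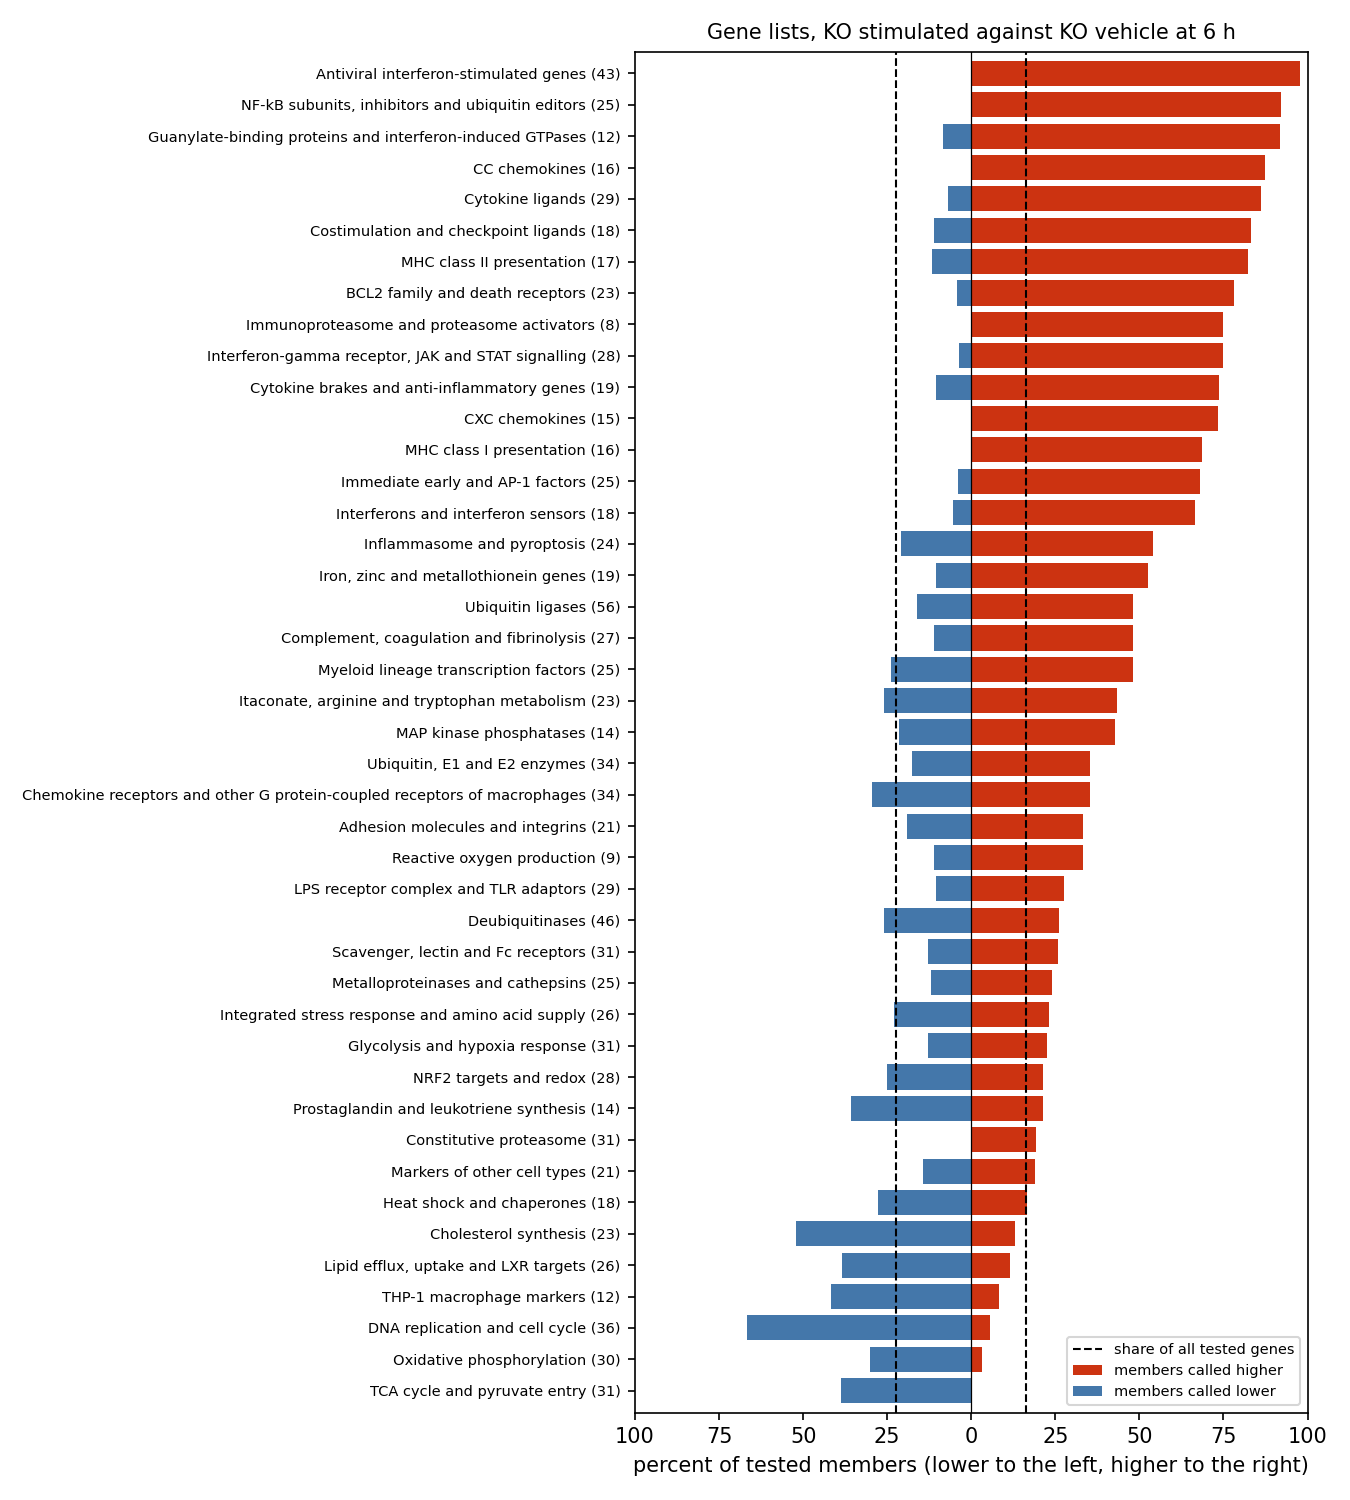
Percent of the tested members of 43 gene lists called higher (red, right) or lower (blue, left) in stimulated KO cells at 6 h, with dashed lines at the 16.2% and 22.5% of all tested genes. Antiviral, NF-kB, chemokine and cytokine lists lie far beyond the line for rises, and the cell cycle and cholesterol lists beyond the line for falls.

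Most genes of central metabolism were not called, beside 38.7% of all genes called, 16.2% higher and 22.5% lower. Of 31 genes of the TCA cycle and pyruvate entry none rose and 12 fell (median -0.38), and of 30 genes of oxidative phosphorylation 1 rose and 9 fell (-0.39), or 1 and 14 without replicate 2, against 22.5% lower for all genes. PDK4 and PDK2, kinases that switch off pyruvate dehydrogenase, fell most. PDK4 read 6.90, 5.17 and 6.76 and then 1.69, 0.61 and 1.17, and PDK2 7.02, 7.71 and 7.12 and then 3.49, 5.05 and 3.15 (-3.39 ± 0.38). Both were lower in every stimulated library. IDH2, the mitochondrial isocitrate dehydrogenase, fell by 1.84 on the log2 scale from 9.95, 10.40 and 10.01 to 8.12, 8.99 and 7.74. SDHA, a subunit of the succinate dehydrogenase that itaconate inhibits, was not called (0.15 ± 0.16). The complex I subunit NDUFA9 rose by 2.00 ± 0.23 from 6.83, 7.55 and 7.04 to 8.85, 9.62 and 8.96, the only 1 of the 30 listed genes of oxidative phosphorylation to do so. Of 31 glycolysis and hypoxia genes 7 rose and 4 fell (0.19), or 6 and 2 without stimulated replicate 3 or vehicle replicate 2. HK2, hexokinase, was not called (-0.23 ± 0.64), with 5.42, 5.34 and 6.60 against 6.80, 3.47 and 6.42. HIF1A, the hypoxia factor that succinate stabilises, rose by 1.68 ± 0.63 with all libraries and by 2.79 without replicate 2, where it read 7.12 against 10.55 and 10.32. That call was lost without stimulated replicate 1 (1.07) or 3 (1.19) or vehicle replicate 2 (1.16).

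NRF2, the factor that itaconate is known to activate, and its targets split, with 6 of 28 genes higher and 7 lower (median 0.13), beside 16.2% and 22.5% of all genes. HMOX1, heme oxygenase, read 9.39, 10.62 and 10.43 and then 7.86, 9.07 and 8.90. The groups did not overlap, with stimulated replicates 2 and 3 lying just below vehicle replicate 1, and the call (-1.54 ± 0.44, adjusted p = 0.0067) was lost without stimulated replicate 1 (-1.16). NQO1, a quinone reductase, was called lower (-1.16 ± 0.45), and the call was lost without stimulated replicate 1 (-0.95) or 3 (-1.22) or vehicle replicate 2 (-1.19) or 3 (-0.98). GCLM, a subunit of the glutathione-making ligase, rose by 2.30 ± 0.40 from 6.31, 6.09 and 6.70 to 9.09, 7.41 and 9.50, whereas the catalytic subunit GCLC fell by 2.31 on the log2 scale from 7.57, 7.78 and 8.28 to 5.88, 4.77 and 6.06. The mitochondrial superoxide dismutase SOD2, also an NF-kB target, moved from 5.82, 5.54 and 5.69 to 13.08, 12.30 and 13.33 (7.22 ± 0.29). The groups of GCLM, GCLC and SOD2 did not overlap.

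Cholesterol synthesis fell in 12 of 23 genes and rose in 3 (median -0.83), beside 22.5% and 16.2% of all genes. EBP, a sterol isomerase of the pathway, fell by 2.24 on the log2 scale from 6.42, 7.30 and 6.37 to 4.10, 5.57 and 3.69. LSS, which closes the sterol rings, rose by 2.43 ± 0.39 from 3.94, 4.51 and 3.59 to 6.46, 6.59 and 6.28. STARD4, a cholesterol transfer protein, rose by 4.95 ± 0.45 from 4.06, 3.24 and 2.82 to 9.22, 7.29 and 8.45. The groups of all 3 genes were apart. CH25H, which makes 25-hydroxycholesterol, moved the other way, from 1.61, 0.00 and 0.00 to 7.08, 9.02 and 6.85 (7.11 ± 0.78). Of 26 genes of lipid uptake and efflux 3 rose and 10 fell (-0.52), with lipoprotein lipase LPL at 11.33, 10.78 and 10.55 and then 8.71, 5.98 and 8.59 (-3.13 ± 0.75). Iron and zinc genes rose in 10 of 19 cases and fell in 2 (1.68). MT2A, a zinc-binding metallothionein with near-identical relatives, rose by 5.48 ± 0.56, and the iron exporter SLC40A1 fell by 2.63 on the log2 scale from 4.76, 3.98 and 6.11 to 2.03, 1.23 and 3.68.

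DNA replication and cell cycle genes fell in 24 of 36 cases and rose in 2 (median -1.75), beside 22.5% and 16.2% of all genes. Falls and rises were 16 and 2 without stimulated replicate 2 and 16 and 3 without vehicle replicate 1. They were 19 and 2 without vehicle replicate 3. MCM6 of the replicative helicase fell by 3.26 on the log2 scale from 8.92, 8.98 and 8.27 to 5.91, 4.70 and 5.78. E2F1, a driver of S phase, fell by 2.53 from 7.12, 7.79 and 6.47 to 4.95, 4.85 and 3.98, and PCNA by 2.05 from 7.62, 8.08 and 7.76 to 5.77, 5.78 and 5.75. CDKN1A (p21), which halts the cycle, was 1 of the 2 that rose, from 9.39, 9.09 and 9.33 to 12.25, 11.11 and 11.65 (2.40 ± 0.41). These 4 genes were separated between the groups. MKI67, the usual marker of dividing cells, was not called (-1.44 ± 0.99), and its vehicle values of 7.35, 2.91 and 5.67 overlapped the stimulated values of 5.25, 2.11 and 4.26. It passed the test without vehicle replicate 2 (-2.64).

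Cell death genes rose in 18 of 23 cases and fell in 1 (median 1.92), and inflammasome genes rose in 13 of 24 and fell in 5 (1.01). These counts stand beside 16.2% higher and 22.5% lower of all genes. The survival protein BCL2A1 moved from 3.92, 7.39 and 3.79 to 12.33, 13.21 and 12.40 (7.61 ± 0.85), the death receptor FAS from 1.12, 0.51 and 0.41 to 7.81, 6.45 and 7.77 (6.66 ± 0.40) and CFLAR, which blocks caspase-8, from 4.65, 4.67 and 4.68 to 9.25, 8.92 and 9.30 (4.49 ± 0.21). AIM2, a sensor of cytosolic DNA, rose by 5.39 ± 0.60 from 2.44, 1.96 and 0.03 to 6.53, 7.07 and 7.02, and CASP1 by 1.99 ± 0.24 from 6.52, 7.21 and 6.97 to 8.50, 9.24 and 8.91. NLRC4, a sensor of bacterial flagellin, fell by 3.41 on the log2 scale from 4.82, 6.59 and 5.36 to 1.82, 2.92 and 1.81. NLRP3 was not called (-0.25 ± 0.45). Apart from NLRP3 the stimulated values of these genes lay outside the vehicle range. Complement and coagulation genes rose in 13 of 27 cases and fell in 3 (1.11), or in 1 without stimulated replicate 2. C1QB of the first complement component went from 0.23, 1.96 and 0.23 to 6.41, 8.54 and 6.86 (6.46 ± 0.56), and thrombomodulin THBD fell by 2.14 on the log2 scale from 11.53, 12.17 and 12.91 to 9.63, 9.91 and 10.66.

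The next question was where the KO response differed from that of WT cells at 6 h, tested as KO response minus WT response. Stimulation moved 3212 genes higher (15.1%) and 4428 lower (20.9%) in WT cells. The difference of the responses was called in 96 genes, 60 in the positive direction (0.283%) and 36 in the negative (0.170%), out of 0.452% in all. With only these 12 libraries in the model 0 genes were called by limma, while 1373 had an unadjusted p under 0.05, so these calls rest on the spread pooled over all libraries. The count was 36 without KO vehicle replicate 1, 52 without its replicate 3, 41 and 58 without KO stimulated replicates 1 and 3, 41, 56 and 63 without WT vehicle replicates 1, 2 and 3, and 51 without WT stimulated replicate 1. Without KO stimulated replicate 2 it was 117. ACOD1 had a difference of -3.10 (adjusted p = 0.0311). This call was lost without KO vehicle replicate 1 (-3.10) or 3 (-3.12), KO stimulated replicate 1 (-3.03), WT vehicle replicate 1 (-3.17), 2 (-3.06) or 3 (-3.06) or WT stimulated replicate 1 (-2.61). EBI3 had the largest positive difference, 5.16 (adjusted p = 0.00342), with a WT rise of 3.57 beside the KO rise of 8.73. IL32, a cytokine that primates have and mice lack, rose by 8.62 ± 0.37 in KO cells, from 0.07, 0.58 and 0.02 to 8.11, 9.49 and 8.92, and by 5.71 in WT cells (difference 2.91, adjusted p = 0.00591). CXCL1, a neutrophil attractant, rose by 9.12 ± 0.41 and 5.88 (difference 3.24, adjusted p = 0.00471), and NOD2, a sensor of bacterial peptidoglycan, by 5.65 ± 0.41 and 2.62 (difference 3.02, adjusted p = 0.0106). The calls of EBI3, IL32, CXCL1 and NOD2 were kept in all 12 runs that left out 1 library. TNF, IL6, IL1B, IL10, IL12B, IFNB1 and HMOX1 had differences between -1.60 and 0.72, none called, and CXCL10 had 3.74, not called (adjusted p = 0.118).

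Several of the differences came from genes that 1 genotype hardly expressed. TMPRSS6, a protease that limits hepcidin, rose by 5.07 ± 0.44 in KO cells and changed by 0.85 in WT cells (difference 4.21, adjusted p = 7.64e-04). IFNLR1, the receptor of interferon-lambda, rose by 3.91 ± 0.58 in KO cells beside -0.34 in WT cells (difference 4.25), and lost the call without KO stimulated replicate 1 (3.75). On the negative side KLHL1 (difference -5.30), TTBK1 (-5.28) and KCNV1 (-4.97) rose in WT cells by 5.54, by 6.11 and by 4.98 and were not called in KO cells. KCNV1 read 0.00, 0.02 and 0.00 in the stimulated KO libraries. The differences of KLHL1 and KCNV1 were kept in all 12 runs that left out 1 library, and that of TTBK1 was lost without KO stimulated replicate 3 (-4.73).

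**Figure D4:**
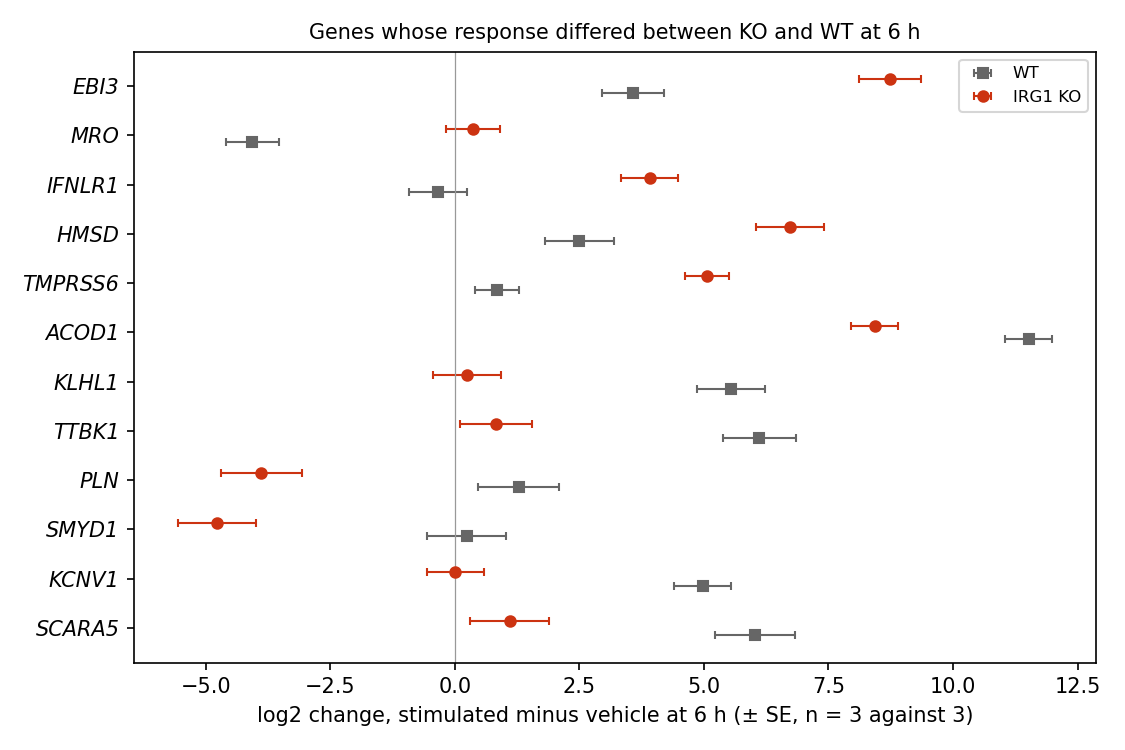
Change after 6 h of stimulation (log2, with standard errors) in KO and WT cells for 11 genes with large differences of response and for ACOD1. EBI3 rises by 8.73 in KO and 3.57 in WT cells, ACOD1 by 8.43 and 11.52, and KCNV1 by 4.98 in WT cells alone.

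The response at 6 h was then set beside that of the same genotype at later times. The vehicle and stimulated libraries at 6 h enter each difference, so the comparisons are not independent of the one above. Stimulation moved 3299 genes higher (15.5%) and 4131 lower (19.5%) at 12 h, together 35.0%, and 3682 (17.3%) and 4587 (21.6%) at 24 h, together 38.9%. The response at 12 h differed from that at 6 h in 44 genes (0.207%), 13 upward (0.0612%) and 31 downward (0.146%), and in 151 without stimulated replicate 2 at 6 h. That count was 12 without vehicle replicate 3 at 6 h, 29, 20 and 24 without vehicle replicates 1, 2 and 3 at 12 h and 25 without stimulated replicate 2 at 12 h. With only these 12 libraries in the model limma called 0 genes, while 1742 had an unadjusted p under 0.05. At 24 h it differed in 1434 genes (6.75%), 711 upward (3.35%) and 723 downward (3.41%), with 889 in all without vehicle replicate 3 at 6 h and 939 without vehicle replicate 2 at 24 h.

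A set of genes had smaller changes at 12 h and 24 h than at 6 h. FSTL3, which binds activin, moved from 2.30, 3.66 and 2.19 to 11.41, 10.30 and 10.65 at 6 h (8.07 ± 0.44), and its change was 3.50 at 12 h and 1.03 at 24 h. ELF3, an epithelial transcription factor induced by NF-kB, moved from 0.57, 0.74 and 0.49 to 6.95, 8.09 and 7.72 (6.99 ± 0.51), followed by 2.73 and 1.17. TSLP, a cytokine that acts on dendritic cells, moved from 1.40, 1.72 and 1.17 to 4.65, 6.54 and 5.80 (4.23 ± 0.47), followed by 0.34 and 0.27. For these 3 genes the differences at both later times were called in every run that left out 1 library. DUOX2, a hydrogen peroxide-making oxidase, rose by 5.61 ± 1.19 at 6 h and was not called at 12 h (0.97) or 24 h (-1.65), a difference of -7.26 between 24 h and 6 h (adjusted p = 0.00899). CSF2 rose by 6.29 at 6 h, 2.57 at 12 h and was not called at 24 h (1.15), and IL27 rose by 8.45, 6.03 and 4.37. The myeloid factor IRF8 rose by 2.61 at 6 h and was not called at 12 h (0.57) or 24 h (-0.18), and MMP10, a stromelysin, rose by 5.83, 2.62 and, not called, 1.07. The zinc finger factor KLF2 rose by 4.08 ± 0.85 at 6 h and was not called later (0.76 and -0.82). For DUOX2, CSF2, IL27, IRF8, MMP10 and KLF2 the difference between 12 h and 6 h was itself not called. Their difference between 24 h and 6 h was called.

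The integrated stress response stood at the other end. It senses amino acid shortage and misfolded protein and acts through the factor ATF4. At 6 h 6 of its 26 genes rose and 6 fell (median -0.14), beside 16.2% and 22.5% of all genes, and at 24 h 19 rose and none fell. The difference between 24 h and 6 h was called upward in 13 of the 26 and downward in none, against 3.35% and 3.41% of all genes. ATF4 read 9.77, 9.69 and 9.85 in vehicle and 9.88, 9.86 and 9.96 in stimulated cells at 6 h, a difference of 0.13 ± 0.13 that was not called, and rose by 1.98 at 24 h. ASNS, asparagine synthetase, changed by -0.29 at 6 h and rose by 3.61 at 24 h, and DDIT3 (CHOP) by -0.26 and 3.38. PSAT1, an enzyme of serine synthesis, fell from 4.81, 5.67 and 4.27 to 2.99, 0.77 and 2.01 at 6 h (-2.99 ± 0.66) and by 2.23 on the log2 scale at 12 h, and then rose by 3.55 at 24 h. Its stimulated values at 6 h all lay below the vehicle values. The difference of PSAT1 between 24 h and 6 h was 6.54, that of ASNS 3.90 and that of DDIT3 3.63, and these calls were kept in all 12 runs that left out 1 library. CHAC1, a glutathione-degrading enzyme downstream of ATF4, already rose at 6 h, from 1.14, 2.49 and 0.36 to 5.74, 7.29 and 5.26 (4.77 ± 0.85), and by 6.16 at 24 h. HMOX1 fell at 6 h and was not called at 12 h (0.86) or 24 h (1.06), a difference of 2.59 at 24 h that was called in every such run.

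**Figure D5:**
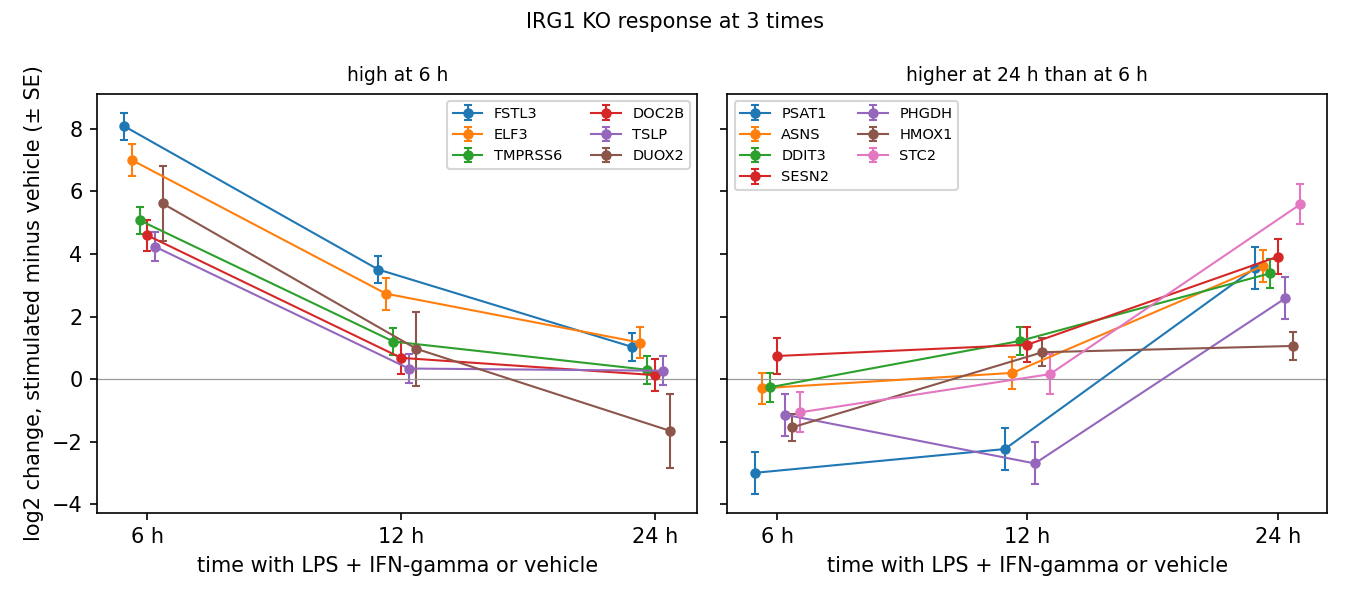
Change with stimulation in KO cells (log2, with standard errors) at 6, 12 and 24 h for genes with a transient rise (left) and for stress response genes, HMOX1 and STC2 (right). FSTL3 goes from 8.07 at 6 h to 1.03 at 24 h, and PSAT1 from -2.99 to 3.55.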

How the data were processed

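RNA was measured by RNA-seq of ribosome-depleted total RNA (KAPA HyperPrep with RiboErase, per the labels' protocols). Per the submitters' processing notes cutadapt 1.9.1, GSNAP and GRCh37.p5 were used; the counting tool, the annotation, the offset and the normalization are not given in the sources used here. The authors deposited 1 table of log2 expression values for 21599 genes in 36 libraries, with library medians of 5.47 to 5.48 and values from -0.34 to 16.75. Without counts the depth is unknown and no count test could be made. Groups were taken from the sample titles.

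Genes at or above log2 of 10 (3.32) in at least 3 libraries were kept (21232, with 367 removed). limma 3.58.1 in R 4.3.3 (with a mean-variance trend) fitted 12 group means to all 36 libraries with 24 residual degrees of freedom, and p-values were adjusted by Benjamini-Hochberg over all genes kept, with calls at an adjusted p below 0.05. Fits were tested on simulated data with independent normal noise. Of 100 genes shifted by 1 log2 unit 25 were recovered, and of 100 shifted by 2 units 60, with 7 false calls. A gene not called may therefore still have changed. The simulation held no deviating library and no shared deviation of same-numbered libraries. Contrasts were KO stimulated against vehicle at 6 h, KO response minus WT response at 6 h, and KO response at 12 h or 24 h minus that at 6 h.

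The members, the 43 gene lists (1023 of 1058 genes tested) and the tests were chosen with earlier results of these data known. Named genes were ACOD1, 8 fixed genes, the 12 largest rises and falls with groups apart and a higher mean of at least 6, up to 4 called and 2 uncalled members of each list, the 6 largest differences each way, and the 8 genes farthest above and below in stimulated replicate 2; others were named for their role after their values were seen. Some genes that the rule names are not reported here. At 6 h same-numbered KO vehicle and stimulated libraries deviated together (correlations 0.548, 0.589 and 0.269). The labels give no pairing, and the main fit uses none. Whether same-numbered libraries share a culture or only a technical lean was not tested, and replicate numbers as a block were an alternative. Alternatives were other filters, pseudocounts, normalizations, weights, designs and each library left out; leaving out stimulated replicate 2 with only the 6 libraries, and equalising medians in bins of GC content and length, with and without the block, were added after seeing the data. Promoters and microRNAs came from RefSeq tables of GRCh38.p14.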

Additional observations from a re-analysis of the deposited data

Results flagged for a closer look

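Each gene below differed between 2 responses by limma's test of the difference itself at a Benjamini-Hochberg adjusted p below 0.05. The values are differences on the log2 scale, and no explanation of them was tested.

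KO response minus WT response at 6 h was 5.16 for EBI3, 4.43 for MRO, 4.25 for IFNLR1, 4.23 for HMSD and 4.21 for TMPRSS6. It was -5.30 for KLHL1, -5.28 for TTBK1, -5.16 for PLN, -5.01 for SMYD1, -4.97 for KCNV1, -4.93 for SCARA5 and -3.10 for ACOD1. MRO fell in WT cells (-4.06) and read at most 0.99 in the KO libraries at 6 h. Of 12 runs that each left out 1 library, the call was lost in 11 for HMSD, 10 for SCARA5, 8 for PLN, 8 for SMYD1, 7 for ACOD1, 1 for IFNLR1 and 1 for TTBK1. HMSD was 3.77, PLN -4.77 and SMYD1 -4.69 without KO stimulated replicate 2, each no longer called.

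KO response at 12 h minus that at 6 h was 5.12 for CDH1, 3.76 for PADI6, 2.48 for NLRC4, 1.92 for OSBPL7 and 1.65 for MYO1F. It was -4.57 for FSTL3, -4.25 for ELF3, -3.91 for DOC2B, -3.90 for TSLP and -3.87 for TMPRSS6. The call was lost in 10 of 12 runs for CDH1, 11 for PADI6, 10 for NLRC4 and 7 for MYO1F, and in none for the other 6 genes.

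KO response at 24 h minus that at 6 h was 6.64 for STC2, 6.54 for PSAT1, 5.79 for PADI2, 5.59 for CYGB, 5.31 for LHX1 and 5.27 for NDRG4. It was -7.26 for DUOX2, -7.04 for FSTL3, -6.34 for XCL1, -6.18 for RTL4 and -5.82 for BNIP5. The call was lost in 3 of 12 runs for LHX1 and in none for the other 10 genes.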

How the results depend on the processing

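The number of genes called in KO cells at 6 h (8219) was 4390 with a stricter filter, 13217 with library weights, 4624 with only the libraries compared and 2339 for changes above 1 log2 unit. Leaving out 1 library at a time gave 6827 to 8260. The difference between KO and WT responses (96) was 8 with the stricter filter, 186 with a pseudocount of 5, 2919 with weights, 0 with only the libraries compared and 9 above 1 unit, and 36 to 117 with 1 library left out. The difference between 12 h and 6 h (44) was 20, 115, 2779, 0 and 1 under the same settings and 12 to 151 with 1 library left out. The difference between 24 h and 6 h (1434) was 897 with the stricter filter, 5850 with weights, 609 with only the libraries compared and 72 above 1 unit, and 889 to 1732 with 1 library left out. With replicate numbers as a block the counts were 9399, 219, 184 and 2485, and with the block and bins of GC content and length equalised 9578, 238, 344 and 2964. For the 3 differences of responses, deviations from the group means correlated above 0.1 in 12 of 18, 16 of 18 and 13 of 18 same-numbered pairs. The KO libraries at 6 h are included each time. Whether the numbers pair the samples was not tested. Of 330 named genes in the KO comparison the block gave 2 more a call, IL18 (adjusted p = 0.0227) and IRF3 (0.0349), and changed no other call. With weights PADI6 (-1.16) and PSMB5 (-0.48) turned negative and were called, where both were 0.03 and not called. The cause of these shifts was not tested. No filter, quantile normalization and median centring changed the call of none of the 330. Depth is unknown, and 3 libraries a group limit the precision.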
